A study of Mus musculus with 3 samples.

Results

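The Bcl2 family of apoptosis regulators was read in the list of predicted m6A sites of RAW264.7, an established mouse macrophage cell line. The 10 members were fixed by name: the anti-apoptotic genes Bcl2, Bcl2l1 and Mcl1, the effectors Bax and Bak1, and the BH3-only genes Bcl2l11, Bbc3, Pmaip1, Bid and Bad. A site belonged to a member when it lay inside the gene's span on the same strand (GENCODE M21, GRCm38), and it was placed on the annotated transcript with the longest coding sequence (CDS). By this rule 40 of the 19301 sites of the list fell in 6 of the 10 members, and Bcl2, Bax, Bcl2l11 and Pmaip1 held none. None of the 40 lay in a further gene on its strand.

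The cells were untreated, and their poly(A)+ RNA was profiled in 3 biological replicates by miCLIP2, in which an antibody against m6A is crosslinked to RNA by UV light and the crosslinks are read at single nucleotides. There was 1 condition and no control, so no comparison between conditions could be made. The list was pooled over the replicates and gives, per site, a position and the prediction score of the m6Aboost classifier, which is the classifier's certainty of its call and not a share of methylated transcripts. It holds no read counts, so neither the depth at a site nor the variation of a score over replicates is known. A gene without a listed site may be unmethylated, or its transcript may be scarce in these cells. A site may also have been missed by the classifier, or its reads may not have mapped uniquely. These cannot be told apart here. Among the macrophage markers, 4 of 8 held sites (Spi1, Csf1r, Lyz2 and Fcgr1), and Adgre1, Itgam, Cd68 and Mertk held none; over all protein-coding genes the share with a site was 23.1%.

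Bcl2 family proteins decide whether the outer membrane of mitochondria is breached, the committing step of intrinsic apoptosis. Bax and Bak1 form the pores, the anti-apoptotic proteins hold them and their activators in check, and the BH3-only proteins carry stress signals by binding to one or both of these classes. m6A is set mainly by the METTL3-METTL14 methyltransferase on an A inside the motif DRACH (D is A, G or U, R is A or G, H is A, C or U; DNA letters, with T for U, are used below), and its readers include proteins that shorten the life of an mRNA.

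The sites that carry the findings are printed first, each as 21 nt of the transcribed strand (GRCm38, 5′ to 3′), with the 5 bases centred on the predicted A in capitals. Sites are numbered from 5′ to 3′ within a gene. The 5 sites of Bbc3 are shown because they formed the tightest group and included the highest score of the family.
Bbc3 site 1 (chr7:16317307-16317327, plus strand): agcgcgggGGACTttttctgc
Bbc3 site 2 (chr7:16317335-16317355, plus strand): agcatactGGACTgccagcct
Bbc3 site 3 (chr7:16317417-16317437, plus strand): ggagatacGGACTtgggggga
Bbc3 site 4 (chr7:16317467-16317487, plus strand): gggctgaaGGACTcatggtga
Bbc3 site 5 (chr7:16317477-16317497, plus strand): actcatggTGACTgagggggt

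The sites of the 3′ UTR of Mcl1 are shown because 4 of these 5 carry GGACT, as do 4 of the 5 above, and because the pair next to the stop codon scored nearly as high as the best of Bbc3.
Mcl1 site 7 (chr3:95660834-95660854, plus strand): gcaataggGGACTcttaaagc
Mcl1 site 8 (chr3:95660898-95660918, plus strand): atgaaggtGGACTtgaagctg
Mcl1 site 9 (chr3:95660921-95660941, plus strand): caggatttTAACAgtccagtt
Mcl1 site 10 (chr3:95661080-95661100, plus strand): atggagaaGGACTtctagaat
Mcl1 site 11 (chr3:95661702-95661722, plus strand): gtgtgtgtGGACTggttatag

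The first 5 sites of Bcl2l1 are shown because they share 1 coding exon.
Bcl2l1 site 1 (chr2:152829878-152829898, minus strand): agagaataGGACTgaggcccc
Bcl2l1 site 2 (chr2:152829860-152829880, minus strand): cccagaagAAACTgaagcaga
Bcl2l1 site 3 (chr2:152829687-152829707, minus strand): atgagtttGAACTgcggtacc
Bcl2l1 site 4 (chr2:152829594-152829614, minus strand): tagtgaatGAACTctttcggg
Bcl2l1 site 5 (chr2:152829574-152829594, minus strand): gatggagtAAACTggggtcgc

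The last set holds the Bid site at the stop codon, all 4 member sites that lack the DRACH motif (Bid sites 4 and 10 and Bak1 sites 1 and 3) with the neighbours of 2 of them (Bid site 11 and Bak1 site 2), and the single site of Bad, shown so that each of the 6 genes is represented.
Bid site 2 (chr6:120894275-120894295, minus strand): taggagatGGACTgaggagcc
Bid site 4 (chr6:120894065-120894085, minus strand): cacaccatGTACCtttgtcct
Bid site 10 (chr6:120893378-120893398, minus strand): tcttgtgcTGAACtttgctta
Bid site 11 (chr6:120893377-120893397, minus strand): cttgtgctGAACTttgcttaa
Bak1 site 1 (chr17:27020804-27020824, minus strand): cagggcaaAGACGctttagca
Bak1 site 2 (chr17:27020316-27020336, minus strand): tggcggctGGACTctcaggga
Bak1 site 3 (chr17:27020306-27020326, minus strand): actctcagGGATTctgagccc
Bad site 1 (chr19:6951776-6951796, plus strand): cctgttctGGACTgccctcgg

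At least 1 site was listed in 6 of the 10 members, against 23.1% of the 21951 protein-coding genes of the annotation. A score of 0.9 or more was reached in 4 of the 10 members (Bcl2l1, Mcl1, Bak1 and Bbc3), against 6.2% of protein-coding genes. At least 8 sites were held by 3 of the 10 (Bid, Mcl1 and Bcl2l1), against 2.96%; at a minimum score of 0.7 Mcl1 alone of these kept 8, with 7 in Bid and 4 in Bcl2l1. The background counts genes that these cells may not transcribe, which the list cannot identify. No test was made of any of these differences, since the members were chosen with earlier results of these data known.

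Sites were concentrated in a few genes: Bid held 12, Mcl1 11, Bcl2l1 8 and Bbc3 5, which is 36 of the 40, while Bak1 held 3 and Bad 1. Protein-coding genes with any site had a median of 3 (quartiles 1 and 5), and 4.09% of them had as many sites as Bid or more. By role, 2 of 3 anti-apoptotic genes held 19 sites, 1 of 2 effectors held 3, and 3 of 5 BH3-only genes held 18. The roles differed in where the sites lay. Of the 19 anti-apoptotic sites 12 were coding and 7 fell in the 3′ UTR, whereas of the 18 BH3-only sites 2 were coding and 16 fell in the 3′ UTR. All 3 effector sites were in the 3′ UTR. Each role rests on 1 to 3 genes, so these are statements about those genes.

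**Figure D1:**
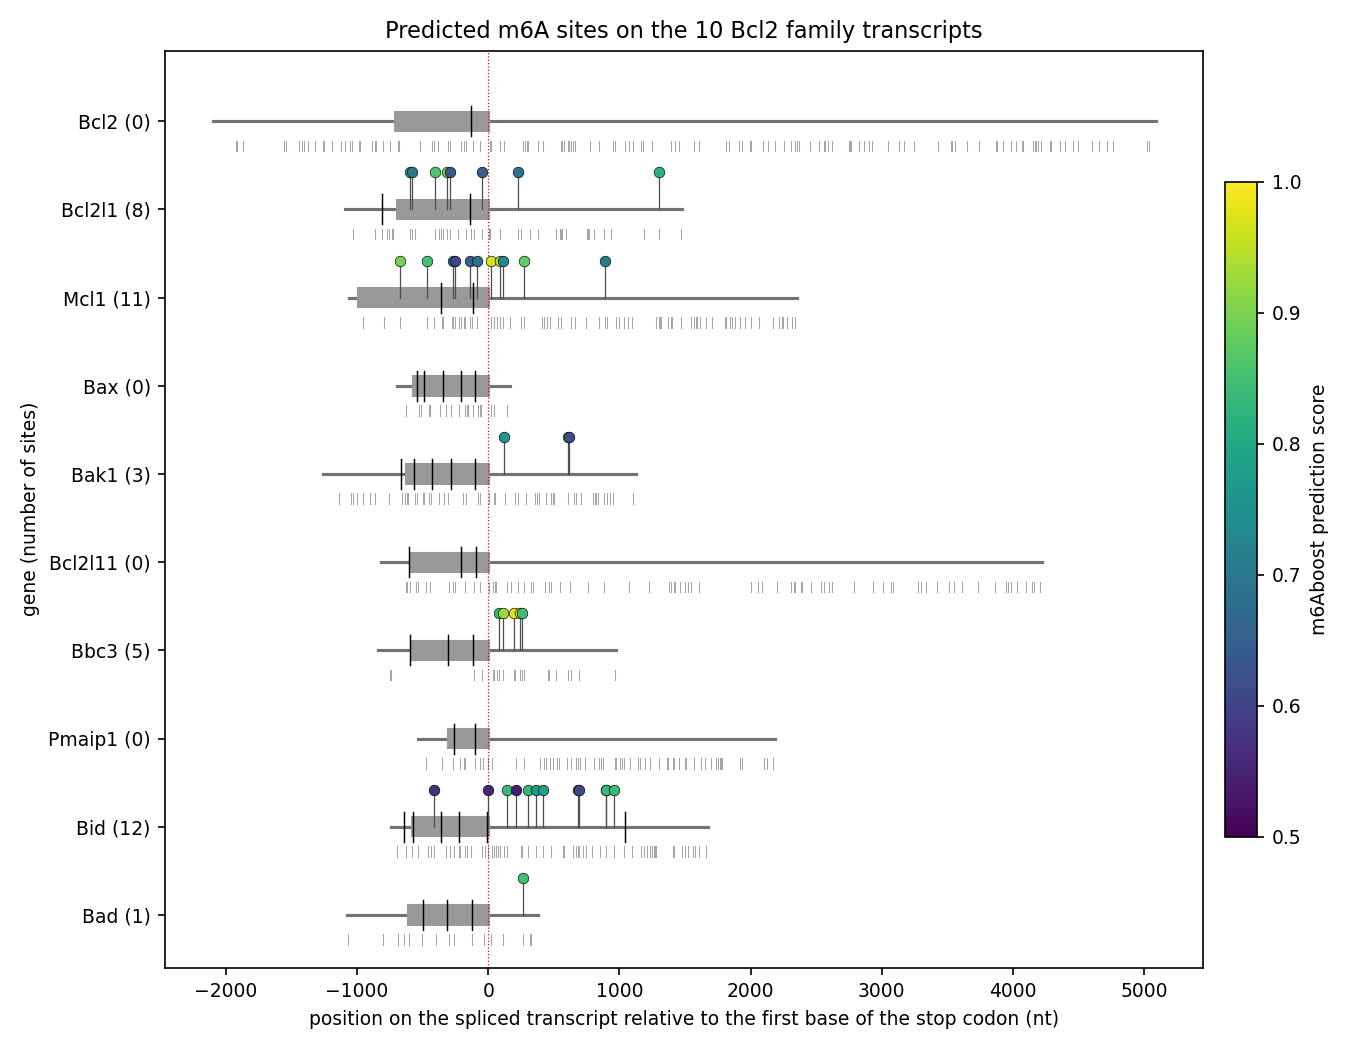
Predicted m6A sites on the transcript of each member, drawn to scale on the spliced transcript and aligned at the first base of the stop codon (x axis, nt). Thick bars are coding sequence, thin lines untranslated regions, black ticks exon junctions, grey ticks below each transcript every exonic DRACH A, and lollipops the listed sites coloured by prediction score; Bcl2 and Bcl2l11 carry long 3′ UTRs with many DRACH A and no site, while the 5 sites of Bbc3 stand together just after the stop codon.

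Mcl1 (chr3:95658788-95663176, plus strand) encodes a short-lived anti-apoptotic protein that many myeloid cells depend on for survival. Its 11 sites spanned the transcript of 3418 nt from codon 106 to the 3′ UTR. The 6 sites of the CDS lay in codons 106, 176, 241, 247, 285 and 304 and scored 0.893, 0.852, 0.740, 0.598, 0.652 and 0.682. The 5 sites of the 3′ UTR lay 23, 87, 110, 269 and 891 nt after the first base of the stop codon and scored 0.966, 0.953, 0.729, 0.880 and 0.709. The highest scores therefore sat right after the stop codon, and the lowest in the coding part of exon 2. Of the whole list, 139 sites (0.72%) scored at least as high as the site at 23 nt. The site at 110 nt had the pentamer TAACA, a DRACH form that made up 0.155% of the list, where its median score was 0.550. The second coding transcript, Mcl1-202, shares all 6 coding sites and ends before the other 5.

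Bcl2l1 (chr2:152780668-152831728, minus strand) encodes Bcl-xL and, by an alternative splice site, the pro-apoptotic Bcl-xS. It had the largest share of its sites in the CDS, 6 of 8, ahead of the 6 of 11 in Mcl1. The first 5 lay in exon 2, which is 676 nt long, in codons 35, 41, 98, 129 and 136, and scored 0.820, 0.698, 0.861, 0.904 and 0.638. The sixth lay in codon 219, 45 nt before the stop codon, and scored 0.648. The 2 sites of the 3′ UTR, at 227 and 1301 nt, scored 0.686 and 0.809. The highest score of the gene thus stood in the CDS, 313 nt before the stop codon, and was the only coding site of the family at 0.9 or more. The first 2 sites lay in all 8 annotated coding transcripts, the next 3 in 6 of the 8 and the last 3 in 2 of the 8.

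Bcl2 (chr1:106538178-106714274, minus strand), the founding anti-apoptotic gene, had no site on either annotated transcript. Its long transcript of 7191 nt has a 3′ UTR of 5086 nt and holds 132 DRACH A, the most of the 10 members, of which 9 are GGACT. None was listed.

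Bak1 (chr17:27019810-27029009, minus strand) encodes the effector that resides in the mitochondrial membrane. Its 3 sites lay 119, 607 and 617 nt after the first base of the stop codon, all in the last exon, and scored 0.764, 0.919 and 0.619. Only the middle one, at GGACT, lay in DRACH, and it had the highest score. The outer sites were at AGACG and GGATT, and the third stood 10 nt downstream of the second. In a shorter annotated coding transcript the first site falls in the CDS.

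Bax (chr7:45461697-45466898, minus strand), the effector that moves from the cytosol to mitochondria, had no site. Its transcript is short, 867 nt in 6 exons, with 21 DRACH A of which 3 are GGACT. Of these 21, 3 lay more than 100 nt from an exon junction. In other members without a site it was 127 of 132 in Bcl2, 68 of 81 in Bcl2l11 and 54 of 63 in Pmaip1. Among members with sites it was 63 of 74 in Mcl1, 33 of 44 in Bcl2l1 and 19 of 21 in Bbc3. It was 36 of 64 in Bid, 34 of 52 in Bak1 and 10 of 16 in Bad. Whether this distance bears on the absence of sites was not tested.

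Bbc3 (chr7:16308393-16318205, plus strand) encodes Puma, a BH3-only protein and a direct target of p53. Its 5 sites all lay in the 3′ UTR, 85, 113, 195, 245 and 255 nt after the first base of the stop codon. They scored 0.834, 0.927, 0.978, 0.963 and 0.847, with a median of 0.927, against 0.787 for all 3′ UTR sites of the list. All 5 therefore stood above the upper quartile of the whole list, 0.832. The site of score 0.978 was the highest of the family, and 85 sites of the list (0.44%) reached that score. The 4 GGACT of the 3′ UTR were all listed, and the fifth GGACT, outside it, was not. No site lay in the CDS, which holds 2 DRACH A. The 5 sites lay in 1 of the 3 annotated coding transcripts, and the other two do not reach them.

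Bid (chr6:120891930-120916853, minus strand) encodes the BH3-only protein that links death receptors to mitochondria once cleaved by caspase-8. It held the most sites of the 10 members, 12, but at a minimum score of 0.7 it kept 7 and Mcl1 8. None of its sites reached 0.9, and its scores ran from 0.538 to 0.837 with a median of 0.768. The first site lay in codon 58 and scored 0.569. The second lay in codon 195, the last before the stop codon, 2 nt upstream of the first base of the stop codon and 7 nt from an exon junction, and scored 0.553 although its pentamer is GGACT. This pentamer runs into the stop codon. The other 10 were spread over the 3′ UTR from 143 to 959 nt after the first base of the stop codon. Of these 10, the sites at 143, 300, 896 and 959 nt scored 0.837, 0.831, 0.835 and 0.837, those at 363, 419 and 687 nt 0.772, 0.779 and 0.763, and those at 208, 694 and 895 nt 0.538, 0.608 and 0.560. High and low scores thus stood interspersed along the 3′ UTR. The sites at 895 and 896 nt are adjacent bases: the first, at TGAAC, lacks DRACH and scored 0.560, and the second, at GAACT, scored 0.835. The site at 208 nt, at GTACC, was also outside DRACH, and that pentamer occurred at 8 sites of the whole list.

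The transcript of Bid with the longest CDS was a tie between Bid-204, annotated as a target of nonsense-mediated decay with 7 exons, and the protein-coding Bid-201 with 6; the rule took Bid-204. Both gave the same CDS and the same distances to the stop codon. On Bid-201, 11 of the 12 sites lay in the last exon of 1439 nt, whereas on Bid-204 a junction after the last site makes that exon the last but one.

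Bad (chr19:6941861-6951899, plus strand) encodes a BH3-only protein held inactive by phosphorylation downstream of growth factors. Its single site, at GGACT 264 nt after the first base of the stop codon, scored 0.846. It lay in 6 of 8 coding transcripts.

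Bcl2l11 (chr2:128126038-128162547, plus strand), which encodes Bim, and Pmaip1 (chr18:66458533-66465565, plus strand), which encodes Noxa, had no site. Their transcripts of 5036 and 2727 nt hold 81 and 63 DRACH A. The 3′ UTRs of the 4 members without a site are 165 nt (Bax), 2187 nt (Pmaip1), 4218 nt (Bcl2l11) and 5086 nt (Bcl2) long. Those of the 6 members with sites are 375 to 2353 nt long, a range that holds Pmaip1 alone of the 4. Whether length bears on the absence of sites was not tested.

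Over the 40 sites, the median score was 0.794 (interquartile range 0.675 to 0.854), against 0.734 (0.627 to 0.832) for the list. The coding sites of the members had a median of 0.690 (n = 14), near the 0.70 of all coding sites. Those of the 3′ UTR had 0.833 (n = 26), against 0.787. Scores of 0.9 or more were reached by 7 of the 40, 17.5% (95% Wilson interval 8.75 to 31.9), against 8.77% of the list. Of these 7, 3 were in Bbc3, 2 in Mcl1 and 1 each in Bcl2l1 and Bak1. Such intervals cover counting error only, and since sites of 1 transcript share their source, they are too narrow for the family.

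**Figure D2:**
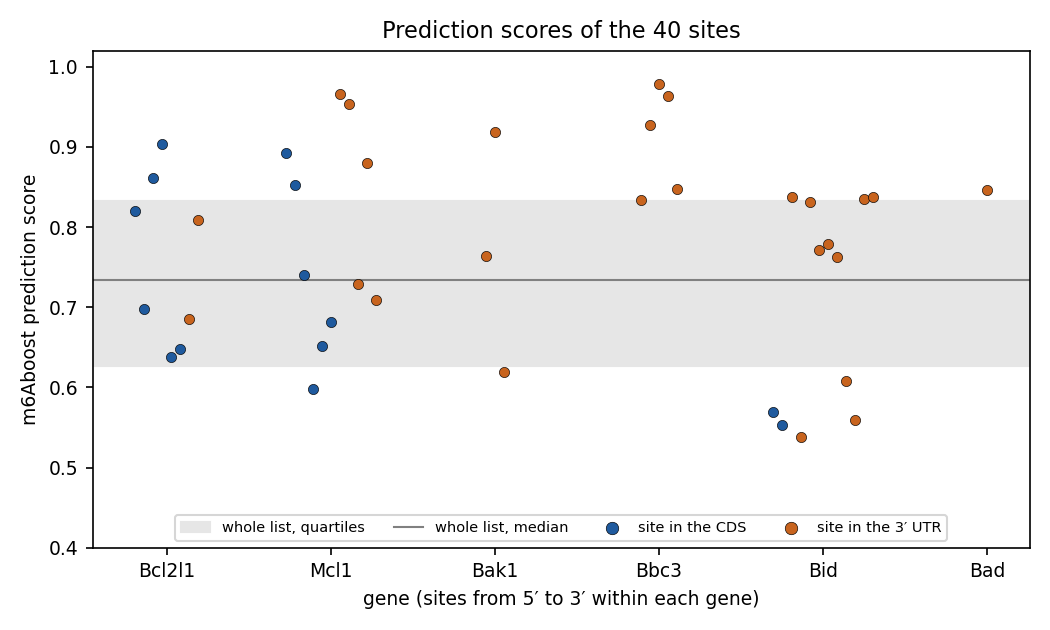
Prediction score (y axis) of each of the 40 sites, by gene and in 5′ to 3′ order within a gene (x axis), coloured by region; the grey band and line give the quartiles and the median of the whole list. All 5 sites of Bbc3 lie above the band, those of Bid reach from below to just above it, and the sites of Mcl1 rise from a minimum at the fourth site to the maximum at the seventh.

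By region, 14 of the 40 sites were in the CDS, 35.0% (22.1 to 50.5) against 49.9% of the list, and 26 in the 3′ UTR, 65.0% (49.5 to 77.9) against 42.3%. None lay in a 5′ UTR or an intron, which held 2.17% and 2.62% of the list. Within 200 nt of the stop codon lay 12 of the 40, 30% (18.1 to 45.4), near the 32.2% of the list. In the last exon lay 18 of the 40 with Bid-204 and 29 with Bid-201, 45.0% and 72.5%, against 68.2% of the list, or 68.4% when only transcripts annotated as protein-coding were used. Within 100 nt of an exon junction lay 7 of the 40 with Bid-204, 17.5% (8.75 to 31.9), against 13%. With protein-coding transcripts only it was 6 of the 40, 15% (7.06 to 29.1), against 13%. Neighbouring sites of a gene were 1 to 1074 nt apart with a median of 87 nt. Another site lay within 30 nt for 18 of the 40, 45.0% (30.7 to 60.2), against 29.1% of the list, and within 100 nt for 29 of the 40, 72.5% (57.2 to 83.9), against 59.9%. The 14 coding sites fell 5, 6 and 3 times on the opening, middle and closing base of a codon, where the list had 24.5%, 48.9% and 26.6%.

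DRACH held 36 of the 40 sites, 90% (76.9 to 96.0), against 91.9% of the list. Of the 18 DRACH pentamers, GGACT led with 14 sites, 35.0% (22.1 to 50.5), against 19.4%. Each of the 6 genes with a site had at least 1 of them: Mcl1 6, Bbc3 4, and Bcl2l1, Bak1, Bid and Bad 1 each. The GGACT sites had a median score of 0.866, the other DRACH sites 0.768 (n = 22) and the 4 sites outside DRACH 0.589. GGACA, which made up 13.2% of the list, occurred only 2 times, both in Bid. The surrounding sequence and the transcript region are among the inputs of m6Aboost, so motif and region are not independent of the list or of the score.

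Of the 271 exonic DRACH A of the 6 genes with a site, 36 were listed, 13.3% (9.75 to 17.8), against 4.63% over the 5080 protein-coding genes with a site. In the CDS 14 of 74 were listed, 18.9% (11.6 to 29.3), against 4.55%, and in the 3′ UTR 22 of 172, 12.8% (8.60 to 18.6), against 4.99%. Of the 25 in a 5′ UTR none was listed. Within 200 nt of the stop codon 11 of 53 were listed, 20.8% (12.0 to 33.5), against 12.7%, and beyond it 11.5% (7.89 to 16.4), against 3.55%. For GGACT the share was 14 of 26, 53.8% (35.5 to 71.2), against 17%. By gene, the listed share of DRACH A was 23.8% in Bbc3, 18.2% in Bcl2l1, 15.6% in Bid, 14.9% in Mcl1, 6.25% in Bad and 1.92% in Bak1. The share of Bid was counted on Bid-204. With protein-coding transcripts only, 36 of 262 DRACH A of the 6 genes were listed, 13.7%. The other 4 members hold 297 exonic DRACH A and 19 GGACT, none listed, and with them the share over all 10 was 6.34%. Over all 10 it was 11.2% in the CDS, 5.67% in the 3′ UTR and 31.1% for GGACT. Within 200 nt of the stop codon it was 12.6%, and beyond it 5.2%. The 5080 genes of the comparison all hold a site, as the 6 do and the 10 do not.

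**Figure D3:**
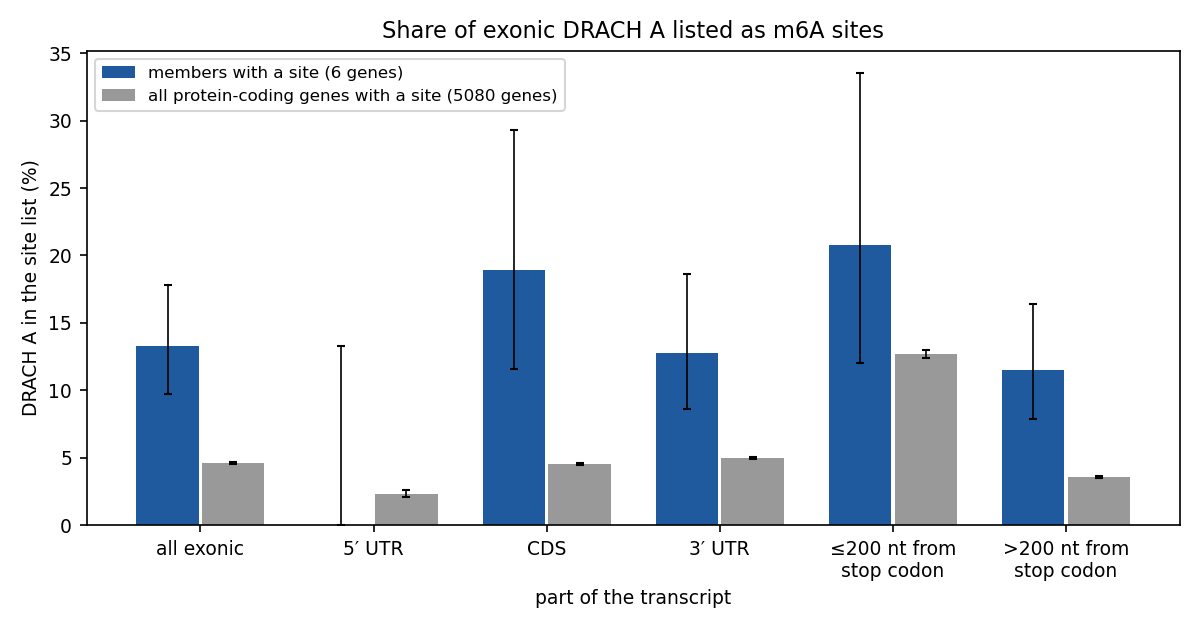
Share of exonic DRACH A that were listed as sites (y axis, %), by part of the transcript (x axis), for the 6 members with a site and for all 5080 protein-coding genes with a site; error bars are 95% Wilson intervals, which cover counting error only. The bar of the members is the higher one in each part but the 5′ UTR, where none of 25 was listed.

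In the wider apoptosis pathway, 27 of 47 genes held 102 sites, beside the 23.1% of protein-coding genes with a site. Among the other Bcl2 family proteins 4 of 15 held a site, led by Bcl2l13, a mitophagy receptor, with 6. Of the apoptosome and caspases, 2 of 8 did, led by Casp8, the protease that cleaves Bid, with 2. All 7 IAP proteins and their antagonists did, led by Birc3, a ubiquitin ligase of this family, with 7. Of the death receptor genes 4 of 7 did. Tnfrsf1a, the main TNF receptor, and its adaptor Tradd had 7 each, and those of Tnfrsf1a all lay within 200 nt of the stop codon. All 3 Vdac channels held sites, Vdac2 the most with 2. All 7 upstream regulators did. Huwe1, a ubiquitin ligase of Mcl1, and Fbxw7, the substrate receptor of another, led them with 9 each. Bid and Mcl1 held more sites than any of these 47 genes.

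**Figure D4:**
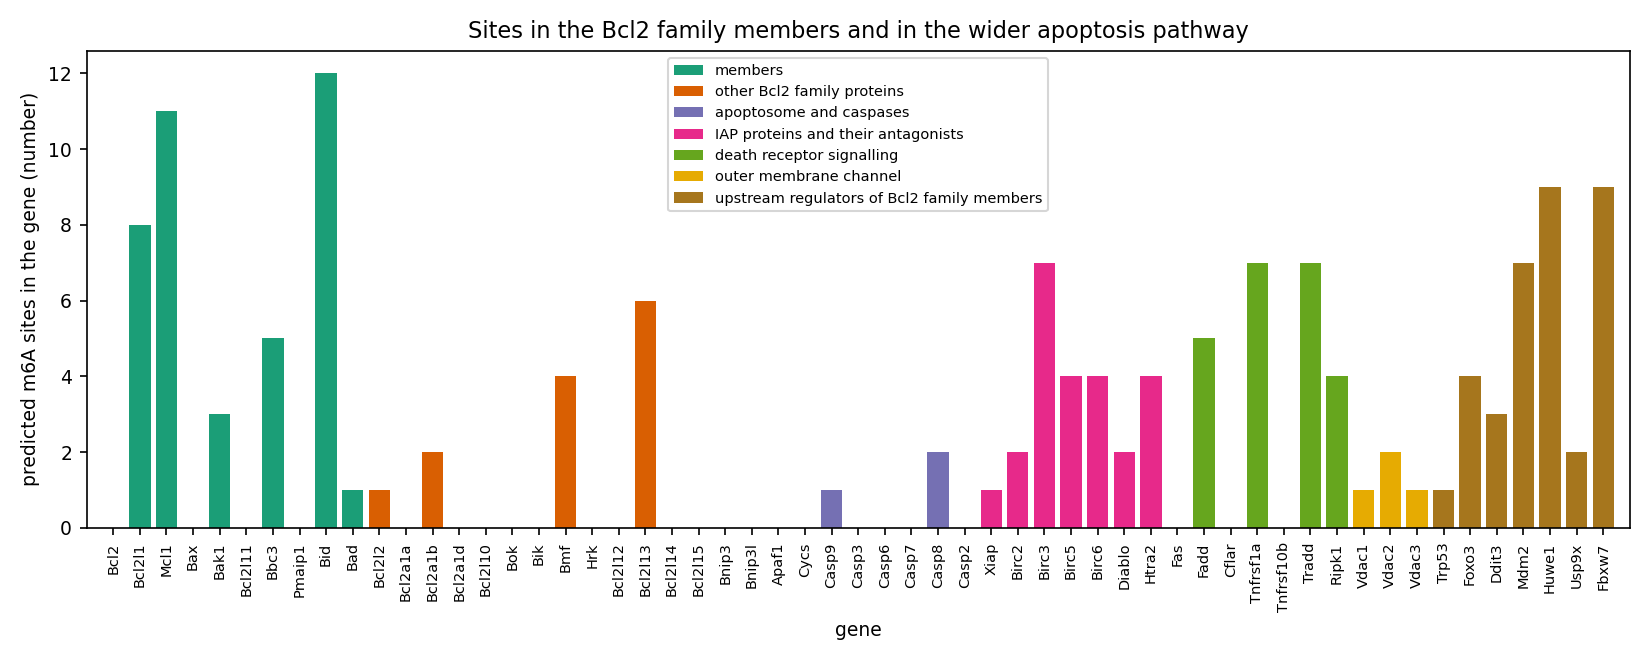
Number of predicted m6A sites (y axis) in each of the 10 members and in the 47 genes of the wider apoptosis pathway (x axis), coloured by group. Bid with 12 and Mcl1 with 11 are the tallest bars, followed by Huwe1 and Fbxw7 with 9 each.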

How the data were processed

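Per the labels, miCLIP2 was run on 3 replicates, each from 1 μg of poly(A)+ RNA with 6 cycles of preamplification. The authors mapped the reads (STAR 2.7.3a), removed duplicates by their molecular identifiers (UMI-tools 1.0.0) and used SAMtools 1.9 and bedtools 2.27.1, per the submitters' processing notes. They called peaks with PureCLIP in each replicate, kept those found in at least 2, and scored peaks at A with m6Aboost. The deposited unit is the m6Aboost score, from 0.5000 to 1.0000.

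All 19301 sites were at A with starts read as 0-based; positions here are 1-based (GRCm38). GENCODE M21 was used, the authors used M23. Ties for the longest CDS went to the longest spliced transcript. The motif was read on spliced transcripts for counts of DRACH A. Placement was checked on simulated data (1891 of 1891 sites placed as simulated). All members were named, and of each wider group the gene with most sites; Tradd and Fbxw7, which tie with the leading gene, were added after their values were seen. Members and lists were chosen with earlier results of these data known, so shares are descriptions with 95% Wilson intervals. Alternatives were minimum scores, collapsed neighbours, other transcripts, motifs and windows. Python 3.11.15, NumPy 2.4.6, SciPy 1.17.1 and matplotlib 3.10.9 were used.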

Additional observations from a re-analysis of the deposited data

How the results depend on the processing

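Of 41 alternatives to the counts, shares and median over the family, 30 stayed within 1.5 times the count, inside the interval of the share or within 1 SD of the median, and 11 moved outside. At a minimum score of 0.7 the DRACH share was 96.3% and the share of DRACH A listed 9.59%. At a minimum of 0.9, 7 sites remained: the DRACH share was 100%, the CDS share 14.3%, the 3′ UTR share 85.7%, the share within 200 nt of the stop codon 57.1%, and the share of DRACH A listed 2.58%. Within 100 nt of the stop codon the share was 15.0% and within 400 nt 60.0%. The last-exon share rose from 45.0% to 72.5% with protein-coding transcripts only, through Bid alone. Of 30 alternatives to the counts of single genes 8 moved, all at a higher minimum score; at 0.7 Bid fell from 12 to 7 sites, behind Mcl1 with 8, and Bcl2l1 from 8 to 4, and at 0.9 Bid and Bad had 0, Bcl2l1 and Bak1 1, Mcl1 2 and Bbc3 3. The alternatives with protein-coding transcripts only, spans extended by 5000 nt and DRACH sites only (median score 0.826) were chosen after seeing the data. No paired analysis was possible because each site has a single value merged from the 3 replicates, and for the same reason no replicate could be left out. Without counts, depth limits every absence: a member without a site is one for which no call was listed.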

Other observations

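Bid and Bcl2l13 are neighbours on opposite strands of chromosome 6, and their annotated gene spans overlap by 913 nt at the 3′ ends. Neither gene had a site in the overlap. The protein-coding Bid-201 ends before the overlap, so that transcript could hold no site there. Downstream of Bax, 2 sites lay 2576 and 3525 nt beyond its annotated end, with scores of 0.555 and 0.771, inside Ftl1, the ferritin light chain gene on the same strand. With spans extended by 5000 nt these would have raised the family to 42 sites in 7 members. No other member had a site within 5000 nt downstream.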
